A study of Mus musculus with 12 samples.

Results

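The genes that build, sense, take up, move and export cholesterol were examined in mouse granulosa cells, in a list of 34 genes chosen by symbol for their known function. The list was made with earlier results of these data known. For each gene, the probe set annotated to that gene alone with the highest mean over the 12 arrays was used. This rule gave a value for 31 of the 34 genes, out of 18193 genes measured in all. Acat2, Soat1 and Nr1h2 had no probe set of their own under this rule and were not analysed here. The 31 genes fell into 6 mevalonate steps, 11 squalene and sterol steps, 5 sterol-sensing genes, 4 genes of transport inside the cell, 2 uptake receptors, and 3 genes of export and oxysterol sensing.

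Granulosa cells of antral, preovulatory follicles were cut out by laser from ovaries of mice aged 3 weeks, and their RNA was amplified and hybridised to single-colour arrays. The mice were wild type (WT) or bERKO, the labels' name for mice without estrogen receptor beta, the product of Esr2. They received PMSG, a gonadotropin that acts like FSH and grows follicles, and were examined 48 h later, or received PMSG and then hCG, a gonadotropin that acts like LH and triggers ovulation, and were examined 4 h after the hCG. Each of the 4 groups (WT PMSG, bERKO PMSG, WT hCG and bERKO hCG) had 3 arrays labelled as biological replicates. All 4 groups had received PMSG, so every hCG value below is a response of PMSG-primed follicles. The strain, the construction of the bERKO allele and the number of animals behind each array go unstated in the labels, so p-values measure the spread between these 12 RNA samples.

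Cholesterol is made from acetyl-CoA by way of mevalonate, farnesyl diphosphate, squalene and lanosterol. When sterols in the membrane of the endoplasmic reticulum are scarce, SCAP escorts the SREBP transcription factors to the Golgi for release, and when sterols are plentiful INSIG proteins hold the complex back, so that synthesis and uptake genes are commonly switched together. Granulosa cells use cholesterol as the substrate of progesterone synthesis, which begins after the LH surge.

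Values are log2(intensity + 16) after quantile normalisation, a scale whose floor is 4, and a change is a difference between group means on that scale. Changes were tested with limma over all 18193 genes, with Benjamini-Hochberg adjustment, and a gene was called at an adjusted p under 0.05. Values are compared between arrays for 1 gene at a time, since the brightness of different probe sets cannot be compared. Because the arrays measure bulk RNA, a lower share of granulosa cells in a capture and less RNA per cell cannot be told apart.

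The cells carried high signal for granulosa markers, with a mean of 11 measured markers between 11.50 and 12.84 on every array. Inha lay between 13.65 and 14.47, while Amh lay between 4.22 and 6.12, near the floor. The signal of Esr2 was 10.33, 9.01 and 9.33 in WT PMSG, 8.19, 8.64 and 8.13 in bERKO PMSG, 8.68, 9.52 and 8.78 in WT hCG, and 8.34, 8.13 and 8.53 in bERKO hCG. Every bERKO array lay below every WT array of the same treatment, but neither difference was called by limma (after PMSG −1.24, SE 0.37, adjusted p = 0.307, after hCG −0.66, SE 0.37, adjusted p = 0.397), and the labels do not say whether the targeted exon is the one this probe set reads. The ratio of 3′ to 5′ Gapdh probe sets, which rises with RNA breakdown, ran from 4.72 to 11.2 on 10 arrays but reached 32.2 for WT hCG replicate 1 and 23.7 for bERKO PMSG replicate 3. Where leaving out the array concerned moved a cholesterol gene's hCG difference by over 1.5 times, the value without it is mostly given too. It is not given for Npc1 after hCG or for Stard4 in the bERKO response, where values of the remaining arrays are printed instead.

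Promoter sequence was read for 25 of the 31 genes (37 windows, 8 genes with several) from RefSeq, build GRCm38.p6. The 250 bases before each start site were searched on both strands for CCAAT (the box bound by NF-Y, a known partner of SREBP), GGGCGG (a GC box), TGACG (a half-site of the cAMP response element) and CACNCCAC (a pattern like the sterol regulatory element). CCAAT occurred in each of the 14 synthesis genes with a window and in 7 of 11 genes of the other roles (63.6%), against 37.5% of the 27025 genes in the RefSeq table. GGGCGG occurred in 21 of 25 genes (84.0%, all genes 35.4%), TGACG in 9 of 25 (36.0%, all genes 19.8%) and CACNCCAC in 2 of 25, Insig1 and Hmgcs1 (8.0%, all genes 6.05%). Among the genes with a window, CCAAT was present in 9 of the 11 that changed in at least 1 comparison below (81.8%) and in 12 of the 14 that did not (85.7%). These are letter matches only, and a window without a match says only that the letters are not in it.

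The 6 promoters below are shown because they belong to genes that behaved differently from each other on the arrays. Idi1, Hsd17b7 and Insig1 had hCG responses that differed between genotypes, Cyp51 and Sc5d rose after hCG in bERKO cells, and Mvk fell there. Each runs 5′ to 3′ toward the start site in the direction of transcription, and capitals mark the CCAAT box, the half-site and the sterol-element pattern as read on either strand, none of which overlap. The positions are chr13:8885356-8885605 (plus strand) for Idi1, chr1:169969243-169969455 (minus) for Hsd17b7, chr5:28071162-28071411 (plus) for Insig1, chr5:4104698-4104947 (minus) for Cyp51, chr9:42264301-42264550 (minus) for Sc5d and chr5:114444019-114444263 (plus) for Mvk. The stretches of Hsd17b7 and Mvk stop 38 and 6 bases before the start site, where another transcript of the gene begins.
Idi1: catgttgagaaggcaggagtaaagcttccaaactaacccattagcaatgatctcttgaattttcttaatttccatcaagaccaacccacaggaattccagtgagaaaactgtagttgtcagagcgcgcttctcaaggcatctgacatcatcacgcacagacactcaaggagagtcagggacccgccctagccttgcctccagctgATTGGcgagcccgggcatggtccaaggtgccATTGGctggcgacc
Hsd17b7: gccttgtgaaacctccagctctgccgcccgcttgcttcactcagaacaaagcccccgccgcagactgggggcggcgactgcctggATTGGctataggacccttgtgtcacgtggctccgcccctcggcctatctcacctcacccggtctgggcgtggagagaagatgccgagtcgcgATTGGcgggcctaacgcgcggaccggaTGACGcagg
Insig1: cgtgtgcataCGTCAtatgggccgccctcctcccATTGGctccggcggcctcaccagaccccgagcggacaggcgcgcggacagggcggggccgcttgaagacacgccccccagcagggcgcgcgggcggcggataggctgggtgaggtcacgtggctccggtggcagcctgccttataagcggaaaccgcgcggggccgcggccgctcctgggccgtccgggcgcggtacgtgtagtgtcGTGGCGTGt
Cyp51: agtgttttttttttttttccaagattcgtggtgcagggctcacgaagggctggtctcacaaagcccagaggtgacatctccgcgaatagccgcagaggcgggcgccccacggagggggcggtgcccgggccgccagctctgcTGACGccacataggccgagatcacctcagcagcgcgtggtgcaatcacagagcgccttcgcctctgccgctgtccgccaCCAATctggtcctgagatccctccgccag
Sc5d: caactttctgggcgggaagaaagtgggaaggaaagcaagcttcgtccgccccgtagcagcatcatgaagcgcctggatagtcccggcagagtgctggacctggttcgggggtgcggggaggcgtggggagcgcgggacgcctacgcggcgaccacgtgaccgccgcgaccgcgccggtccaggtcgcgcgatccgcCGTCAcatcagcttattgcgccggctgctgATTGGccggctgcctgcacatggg
Mvk: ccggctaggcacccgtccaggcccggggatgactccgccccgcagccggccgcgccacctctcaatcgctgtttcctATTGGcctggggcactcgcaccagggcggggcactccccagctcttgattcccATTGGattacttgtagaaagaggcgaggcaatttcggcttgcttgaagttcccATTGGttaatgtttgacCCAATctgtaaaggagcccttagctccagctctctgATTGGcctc

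Mvk, which fell, had the most CCAAT boxes of these 6 (5 in its window), Hsd17b7 had 3 (of which 2 lie in the stretch shown), Idi1 had 2, and the others had 1 each. TGACG was found in Hsd17b7, Insig1, Cyp51 and Sc5d, and Insig1 alone of the 6 held CACNCCAC, beginning 9 bases before its start site. Because all 14 synthesis genes with a window held CCAAT, its presence could not separate Mvk from the synthesis genes that rose.

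After PMSG alone, no cholesterol gene was called between genotypes. Limma called 0 of 31 genes, where 0.011% of all genes (2 of 18193) were called, and 3 of the 31 had an unadjusted p under 0.05, compared with 9.53% of all genes. These 3 were Lrp8 (−1.10, 95% interval −1.94 to −0.26, adjusted p = 0.397), Mvk (0.90, 0.14 to 1.66, adjusted p = 0.437) and Nr1h3 (0.86, 0.10 to 1.62, adjusted p = 0.457). The median change of the 31 genes was −0.20 and that of all genes 0.04. With each array centred on its median instead, the 31 genes had a median of 0.03 and all genes 0.24, so the sign of the list's median depended on the scaling. All 3 arrays of a genotype lay above all 3 of the other for 5 genes: Mvk, Fdft1 and Nr1h3 were higher in bERKO, and Lrp8 and Srebf2 were lower, where 14.7% of all genes were apart in this way.

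At 4 h after hCG the signal of many genes of the pathway was higher in bERKO captures than in WT captures. Limma called 9 of 31 genes higher in bERKO (1.55% of all genes) and 0 lower (1.54% of all genes, 3.09% in either direction). They were Idi1 and Fdps of the mevalonate steps, Sqle, Cyp51, Hsd17b7 and Dhcr7 of the squalene and sterol steps, Insig1 of sterol sensing, Stard4 of transport and Lrp8 of uptake. The change was positive for 27 of 31 genes (87.1%), against 45.9% of all genes, and its median was 0.99, or 1.36 over the 17 synthesis genes, against −0.06 over all genes. The groups were apart and higher in bERKO for 18 of 31 genes (11.4% of all genes) and apart and lower for 3, Mvk, Scap and Lipa (13.2% of all genes, 24.5% in either direction). An unadjusted p under 0.05 was reached by 20 of the 31 genes and by 17.5% of all genes.

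**Figure D1:**
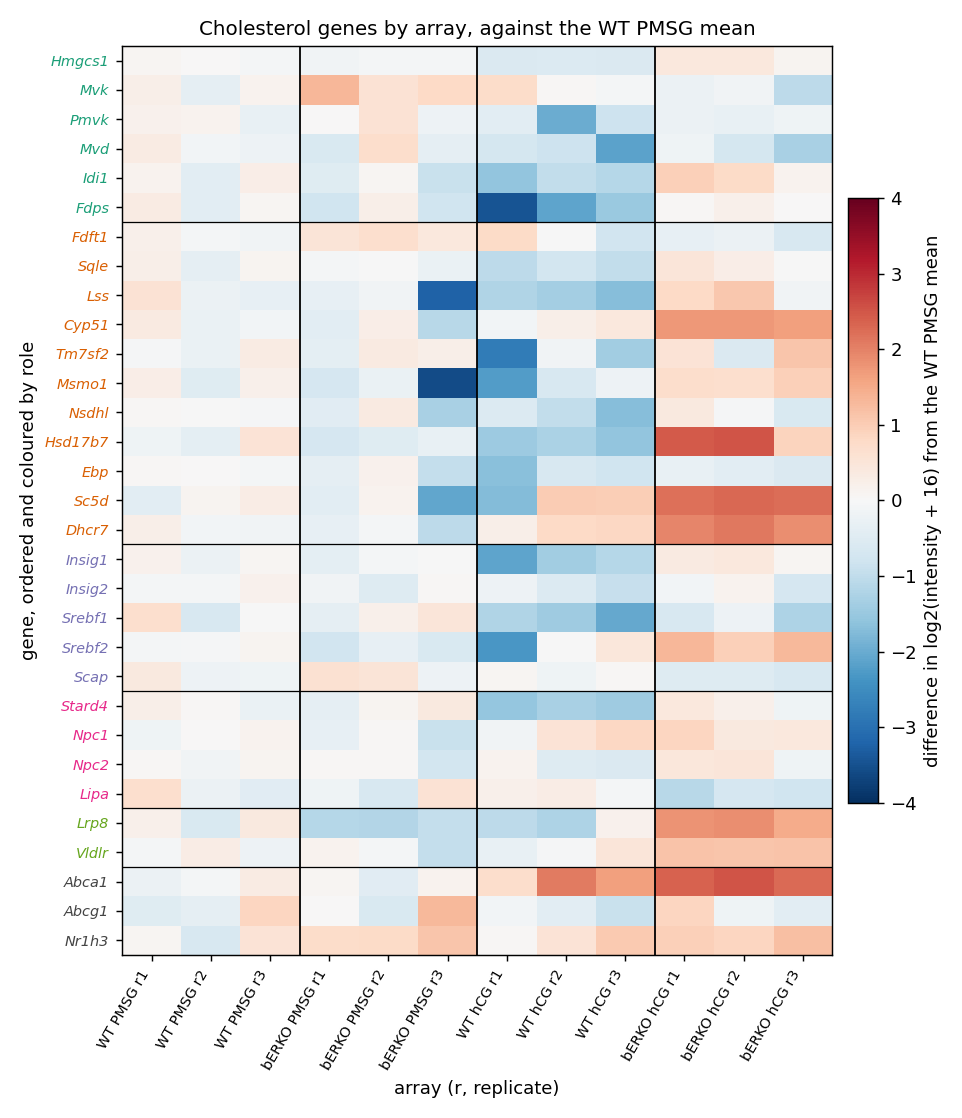
Colours show, for each of the 31 genes (rows, grouped and coloured by role) and 12 arrays (columns, r for replicate), the difference in log2(intensity + 16) from the mean of the 3 WT PMSG arrays. The 3 bERKO hCG columns are above the WT hCG columns for 18 genes and below them for 3.

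Among the mevalonate steps, 2 of 6 genes were called. Idi1, which makes dimethylallyl diphosphate from isopentenyl diphosphate, had values of 10.94, 11.55 and 11.38 in WT hCG and 13.48, 13.30 and 12.67 in bERKO hCG. It was 3.63-fold higher in bERKO (log2 change 1.86, SE 0.34, adjusted p = 0.0181 by limma), and the groups did not overlap. After PMSG the same gene had lain at 12.67, 12.11 and 12.80 in WT and at 12.03, 12.60 and 11.62 in bERKO, overlapping ranges.

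Fdps, farnesyl diphosphate synthase, had values of 6.58, 7.93 and 8.55 in WT hCG and 10.08, 10.22 and 10.04 in bERKO hCG, a 5.38-fold difference (2.43, SE 0.46, adjusted p = 0.0206 by limma). Its WT hCG arrays were widely spread and all lay below the lowest bERKO array. Its second probe set, near the floor at a mean of 4.34, differed by 0.13. Hmgcs1, the HMG-CoA synthase at the head of the pathway, lay at 13.44, 13.47 and 13.44 in WT hCG and 14.44, 14.44 and 14.14 in bERKO hCG and just missed the threshold (0.89, SE 0.22, adjusted p = 0.0502 by limma). The other 4 probe sets of Hmgcs1 gave larger differences, 1.86 to 2.47, and the gene was called when the mean of its probe sets was used. Mvk, mevalonate kinase, differed from its neighbours in sign: its 3 bERKO hCG arrays all lay below its 3 WT hCG arrays (−0.72, SE 0.35, adjusted p = 0.320 by limma, and −0.46 without WT hCG replicate 1). Pmvk, phosphomevalonate kinase, and Mvd, the decarboxylase that follows it, had changes of 0.84 and 0.50 that were not called, the latter 0.76 without that array.

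Of the squalene and sterol steps, 4 of 11 genes were called, 10 of 11 had positive changes and 8 had groups apart. Hsd17b7, a sterol 3-ketoreductase that also reduces estrone to estradiol, had the largest change of the 31 genes. It had values of 10.14, 10.31 and 10.01 in WT hCG and 14.04, 14.09 and 12.47 in bERKO hCG, a 10.4-fold difference (3.38, SE 0.42, adjusted p = 0.00406 by limma). After PMSG it had lain at 11.41, 11.19 and 12.13 in WT and at 10.92, 11.09 and 11.29 in bERKO. So WT hCG was the lowest and bERKO hCG the highest of its 4 groups, with bERKO replicate 3 the lowest of its group. The probe set used is of the kind whose probes can match more than 1 transcript, and the other 3 probe sets of the gene gave 1.20, 3.48 and 3.71. In the WT response to hCG these 3 gave 0.60, 0.13 and −0.69, against −1.42 for the probe set used. The low WT hCG level was therefore not shared by all probe sets.

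Sqle, squalene epoxidase, had values of 9.41, 9.70 and 9.46 in WT hCG and 10.92, 10.70 and 10.43 in bERKO hCG (2.23-fold, 1.16, SE 0.25, adjusted p = 0.0355 by limma). In WT PMSG it had lain at 10.69, 10.09 and 10.55 and in bERKO PMSG at 10.36, 10.42 and 10.19, so the WT hCG arrays stood below all 9 others. Cyp51, lanosterol 14-alpha-demethylase, had values of 11.55, 11.88 and 12.07 in WT hCG and 13.38, 13.39 and 13.30 in bERKO hCG (2.87-fold, 1.52, SE 0.34, adjusted p = 0.037). For Cyp51 it was the bERKO hCG arrays that stood apart: WT PMSG lay at 12.01, 11.39 and 11.53 and bERKO PMSG at 11.23, 11.90 and 10.54.

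Dhcr7, the reductase that makes cholesterol from 7-dehydrocholesterol, behaved like Cyp51. It had values of 10.85, 11.42 and 11.46 in WT hCG and 12.59, 12.74 and 12.47 in bERKO hCG (2.57-fold, 1.36, SE 0.30, adjusted p = 0.037 by limma). Its PMSG arrays lay at 10.85, 10.53 and 10.50 in WT and 10.31, 10.56 and 9.57 in bERKO. Lss, the cyclase that makes lanosterol (1.99, SE 0.69, adjusted p = 0.145), Sc5d (2.16, SE 0.70, adjusted p = 0.127), Msmo1, a sterol methyl oxidase (1.81, SE 0.75, adjusted p = 0.236), and Tm7sf2, a sterol C14 reductase (1.81, SE 0.60, adjusted p = 0.131), had changes of similar size to the called genes but a wider spread. The SE draws on all 4 groups. For Lss and Msmo1 the widest spread was in bERKO PMSG (SD 1.73 and 1.80), and Lss was called without bERKO PMSG replicate 3. For Sc5d, which makes 7-dehydrocholesterol, it was in WT hCG (SD 1.58, and 1.15 in bERKO PMSG). Its values were 7.79, 10.53 and 10.51 there against 11.73, 11.82 and 11.76 in bERKO hCG. Without WT hCG replicate 1 the change was 1.25 for Sc5d, 1.21 for Msmo1 and 1.13 for Tm7sf2. Nsdhl, a dehydrogenase of sterol C4 demethylation, and Ebp, the sterol isomerase, had smaller changes, 0.99 and 0.61, the latter 0.30 without WT hCG replicate 1. Fdft1, squalene synthase, was the one gene of these steps with a negative change (−0.41, and −0.02 without that array).

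In the sterol-sensing group 1 of 5 genes was called. Insig1, which retains the SCAP and SREBP complex in the endoplasmic reticulum and is itself a common SREBP target, had values of 10.67, 11.39 and 11.66 in WT hCG and 13.16, 13.21 and 12.86 in bERKO hCG (3.58-fold, 1.84, SE 0.29, adjusted p = 0.00965 by limma). After PMSG it had lain at 12.95, 12.55 and 12.86 in WT and at 12.41, 12.72 and 12.79 in bERKO, so the WT hCG arrays were below all 9 others. Its relative Insig2 differed by 0.35. Srebf2, which encodes SREBP2, the main activator of the synthesis genes, had values of 6.31, 8.62 and 9.08 in WT hCG and 9.97, 9.59 and 9.94 in bERKO hCG and was not called (1.83, SE 0.55, adjusted p = 0.102). Its change was 0.98 without WT hCG replicate 1, and its second probe set gave 0.34. Scap, the SREBP escort, had a change of −0.54 with its groups apart, and Srebf1, which encodes SREBP1, had a change of 0.86.

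For transport and uptake, 1 of 4 and 1 of 2 genes were called. Stard4, which carries sterol between membranes, had values of 8.86, 9.10 and 8.98 in WT hCG and 10.83, 10.61 and 10.23 in bERKO hCG (2.99-fold, 1.58, SE 0.28, adjusted p = 0.0151 by limma). WT hCG again stood below all 9 other arrays, which ran from 10.06 to 10.83. The lysosomal genes were not called: Npc1 and Npc2, which pass cholesterol out of the lysosome, differed by 0.14 and 0.58, and Lipa, the acid lipase that frees cholesterol from its esters, had a mean of 10.11 in WT hCG and 9.11 in bERKO hCG (adjusted p = 0.173 by limma). The other 2 probe sets of Lipa gave changes of the opposite sign, 0.29 and 0.33. For Npc1, WT hCG replicates 2 and 3 lay at 10.19 and 10.47, and the bERKO hCG arrays at 10.49, 10.03 and 10.05. WT hCG replicate 1 lay below all of these, and without it the change of Npc1 would be negative.

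Lrp8, a lipoprotein receptor also known as ApoER2, had values of 8.04, 7.87 and 9.27 in WT hCG and 10.90, 10.97 and 10.58 in bERKO hCG (5.37-fold, 2.42, SE 0.38, adjusted p = 0.00952 by limma). After PMSG it had lain at 9.30, 8.49 and 9.49 in WT and 7.94, 7.92 and 8.13 in bERKO, so bERKO had the lower values before hCG and the higher ones after it. Its other 2 probe sets gave 1.65 and 2.44 after hCG. Vldlr, the related VLDL receptor, had values of 10.68, 10.94 and 11.47 in WT hCG and 12.13, 12.09 and 12.14 in bERKO hCG, groups that did not overlap, but was not called (1.09, SE 0.33, adjusted p = 0.101).

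None of the 3 genes of export and oxysterol sensing was called after hCG. Abca1, which exports cholesterol to apolipoprotein A-I, had a change of 0.91 (SE 0.35, adjusted p = 0.192 by limma), and 0.53 without WT hCG replicate 1. Abcg1, another exporter, and Nr1h3, the oxysterol receptor LXR-alpha, had changes of 0.56 and 0.45 (the latter 0.19 without that array), at values between 5.13 and 7.01 in the hCG groups. These last genes lay near the floor of the scale, where changes are compressed.

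**Figure D2:**
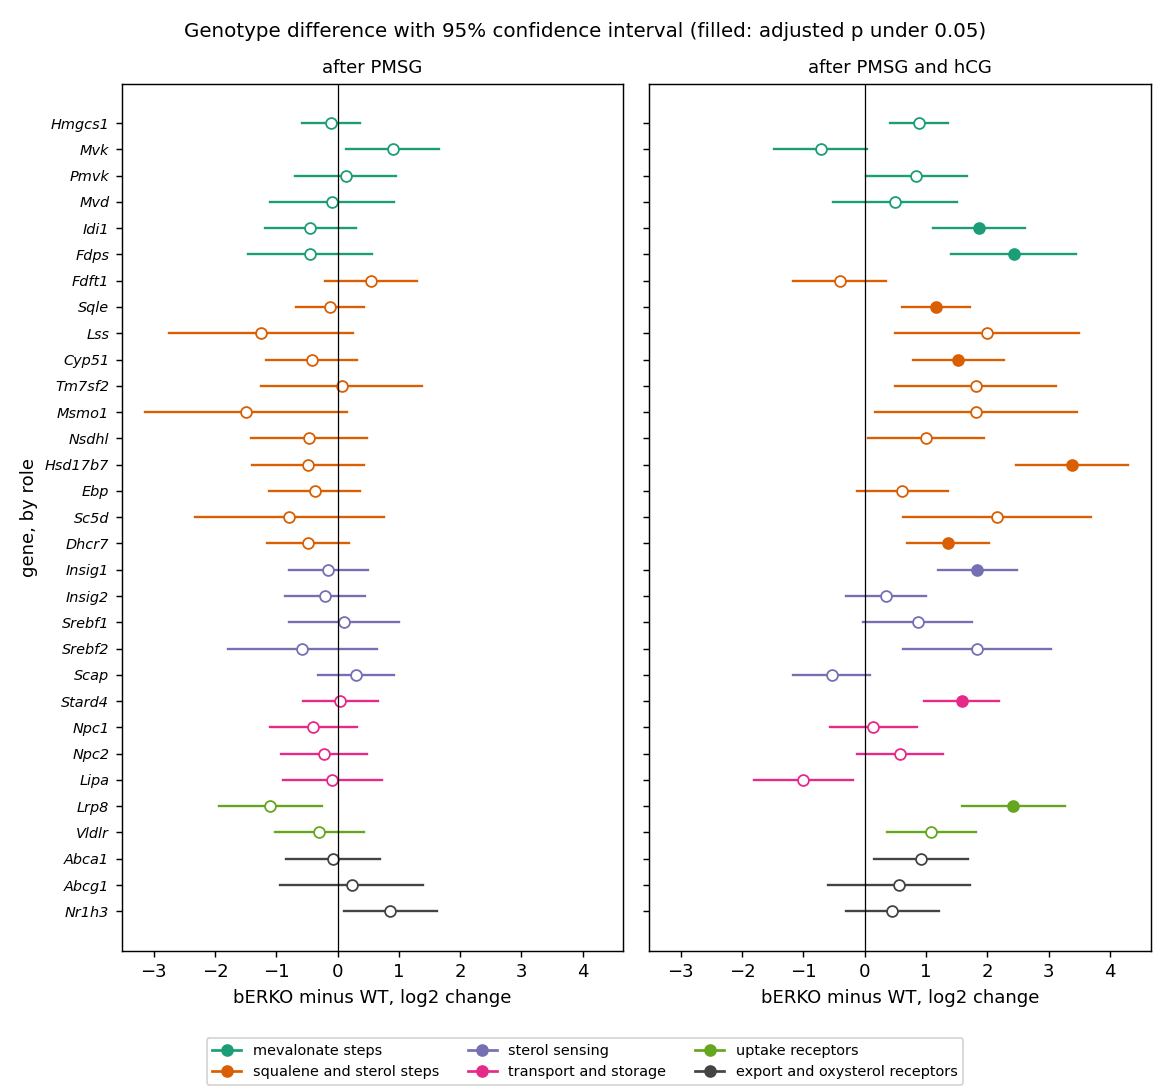
Points give the bERKO minus WT change in log2(intensity + 16) of each gene after PMSG and after hCG, with bars for the 95% confidence interval, colours for role and filled points for an adjusted p under 0.05. No point is filled after PMSG, and 9 are filled after hCG, all to the right of 0, with Hsd17b7 farthest at 3.38.

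The count after hCG moved with single arrays. It was 3 of 31 without WT hCG replicate 1, without bERKO hCG replicate 1 or without bERKO hCG replicate 2, and the 3 were then Hsd17b7, Insig1 and Lrp8 in each case. It was 5 without bERKO hCG replicate 3, 6 without WT hCG replicate 2 or WT PMSG replicate 3, and 11 without bERKO PMSG replicate 3. Cyp51, Dhcr7 and Sqle were the calls lost without WT hCG replicate 2 or WT PMSG replicate 3, and 1 or 2 of these were lost without WT PMSG replicate 1 or 2 or WT hCG replicate 3. Without both arrays of high Gapdh ratio the count was 8, of which 7 were shared, with Cyp51 and Sqle lost and Lss gained. Over all genes the calls, 282 higher and 280 lower, moved too. They were 67 and 74 without WT hCG replicate 1, and 59 and 84 without bERKO hCG replicate 1. Leaving out bERKO hCG replicate 2 gave 66 and 106, and bERKO hCG replicate 3 gave 149 and 106. Leaving out WT hCG replicate 2 gave 153 and 154, and WT PMSG replicate 3 gave 226 and 206. Without bERKO PMSG replicate 3 they were 345 and 339, and without both arrays 127 and 132. Hsd17b7 was called under each of the 24 alternatives run.

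In WT cells the response to hCG was downward where it was called. Limma called 3 of 31 genes lower (1.35% of all genes) and 0 higher (0.731% of all genes). They were Fdps, which fell by 2.34 (SE 0.46, adjusted p = 0.0289), Insig1, which fell by 1.55 (SE 0.29, adjusted p = 0.0251), and Stard4, which fell by 1.43 (SE 0.28, adjusted p = 0.0272). Fdps had lain at 10.37, 9.62 and 10.11 in WT PMSG and at 9.24, 10.25 and 9.24 in bERKO PMSG, and Stard4 at 10.63, 10.45 and 10.15 in WT PMSG and at 10.06, 10.53 and 10.79 in bERKO PMSG. For each of the 3, the WT hCG arrays lay below all WT PMSG arrays.

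The median WT change was −0.63 over the 31 genes and −1.04 over the 17 synthesis genes, against −0.08 over all genes. With each array centred on its median these were −0.86 for the 31 genes and −0.22 for all genes. Groups were apart and lower after hCG for 14 of the 31 genes, where 15.2% of all genes were, and apart and higher for 1, Abca1, where 8.79% of all genes were. Below the threshold were Idi1 (−1.23, adjusted p = 0.089), Sqle (−0.92, adjusted p = 0.0879), Hsd17b7 (−1.42, adjusted p = 0.103) and Srebf1 (−1.56, adjusted p = 0.0764). The change of Hsd17b7 was negative on 2 of its 4 probe sets. Abca1, at 10.02, 10.19 and 10.60 in WT PMSG and 10.98, 12.35 and 11.90 in WT hCG, had a change of 1.47 (SE 0.35, adjusted p = 0.0549 by limma) and was called without WT hCG replicate 1 (1.85, adjusted p = 0.012). The 3 calls were lost, to 0, without any 1 of the 3 WT PMSG arrays or without WT hCG replicate 2. Over all genes 133 were called higher and 245 lower with all arrays. Without WT PMSG replicates 1, 2 and 3 in turn these were 25 and 37, 30 and 45, and 29 and 38. Without WT hCG replicate 2 they were 17 and 32. Stard4 was lost without WT hCG replicate 3 and Fdps without bERKO hCG replicate 2, leaving 2 calls each time.

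In bERKO cells, some of the squalene and sterol genes, both uptake receptors and Abca1 rose after hCG. Limma called 9 of 31 genes higher (7.05% of all genes) and 1 lower (11.9% of all genes, 18.9% in either direction). The groups were apart and higher after hCG for 14 genes (13.3% of all genes) and apart and lower for 4 (22.9% of all genes, 36.2% in either direction). Over all genes falls outnumbered rises, 2164 against 1283 (1911 against 1441 on the values as deposited, and 3008 against 964 with each array centred on its median). The median change was 0.41 over the 31 genes and −0.19 over all genes (0.12 and −0.41 with centring). By role, 4 of 11 squalene and sterol genes, 1 of 6 mevalonate genes, 1 of 5 sensing genes, both uptake receptors and 1 of 3 export genes were called higher, and no transport gene was. In the same contrast limma called lower 6 of 12 oocyte markers (12 of 12 negative, median −2.21) and 5 of 11 granulosa markers, and called higher 5 of 12 endothelial, 2 of 12 stromal and 2 of 12 leukocyte markers. Of 5 theca markers, 1 was called higher and 1 lower (median −0.12). The part of these markers in the response was not tested.

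Sc5d rose by 3.02 (SE 0.70, adjusted p = 0.0117 by limma, 8.14-fold), from 9.11, 9.67 and 7.45 to 11.73, 11.82 and 11.76. Its next enzyme Dhcr7 rose 5.49-fold (2.46, SE 0.30, adjusted p = 0.000454), and Cyp51 4.38-fold (2.13, SE 0.34, adjusted p = 0.0016). Hsd17b7 rose 5.40-fold (2.43, SE 0.42, adjusted p = 0.00233). In the mevalonate steps, Idi1 rose 2.09-fold (1.07, SE 0.34, adjusted p = 0.0489), while Mvk fell by 1.38 (SE 0.35, adjusted p = 0.0178), from 9.40, 8.67 and 8.89 to 7.85, 7.94 and 7.03. Fdft1, the branch enzyme into squalene, had a change of −0.96 that was not called (adjusted p = 0.0771), with its bERKO hCG arrays all below its bERKO PMSG arrays. Without bERKO PMSG replicate 3, the array with the lowest value, the rise of Sc5d was 2.38 (adjusted p = 0.04), below those of Lrp8 (2.88), Abca1 (2.57) and Hsd17b7 (2.53), and the changes of Lss and Msmo1, not called, went from 1.82 to 0.82 and from 2.28 to 1.24.

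Of the receptors, Lrp8 rose 7.05-fold (2.82, SE 0.38, adjusted p = 0.000727 by limma). Vldlr rose 2.70-fold (1.43, SE 0.33, adjusted p = 0.011), from 11.13, 10.90 and 10.03, although its 6 probe sets ranged from −0.14 to 1.71. Abca1 rose 5.51-fold (2.46, SE 0.35, adjusted p = 0.000875), from 10.36, 9.82 and 10.40 to 12.64, 12.79 and 12.54. Abca1 is the gene that lay higher after hCG in both genotypes with its groups apart. Srebf2 rose by the probe set used (1.77, SE 0.55, adjusted p = 0.0443), from 7.86, 8.30 and 8.03 to 9.97, 9.59 and 9.94, but its second probe set gave −0.40. Insig1 (0.44), Stard4 (0.10), Fdps (0.54) and Sqle (0.36), which were called between genotypes after hCG, were not called in this response. The small change of Stard4 would be larger without bERKO PMSG replicate 3, at 10.79 above replicates 1 and 2 (10.06 and 10.53). Over the 12 fits that each left out 1 array, Idi1 was lost without any 1 of the WT PMSG arrays, bERKO PMSG replicate 1 or 3, WT hCG replicate 2 or 3, or bERKO hCG replicate 1 or 2. Srebf2 was lost without any 1 of the 9 arrays outside WT hCG, and Mvk without bERKO PMSG replicate 1 or bERKO hCG replicate 3.

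**Figure D3:**
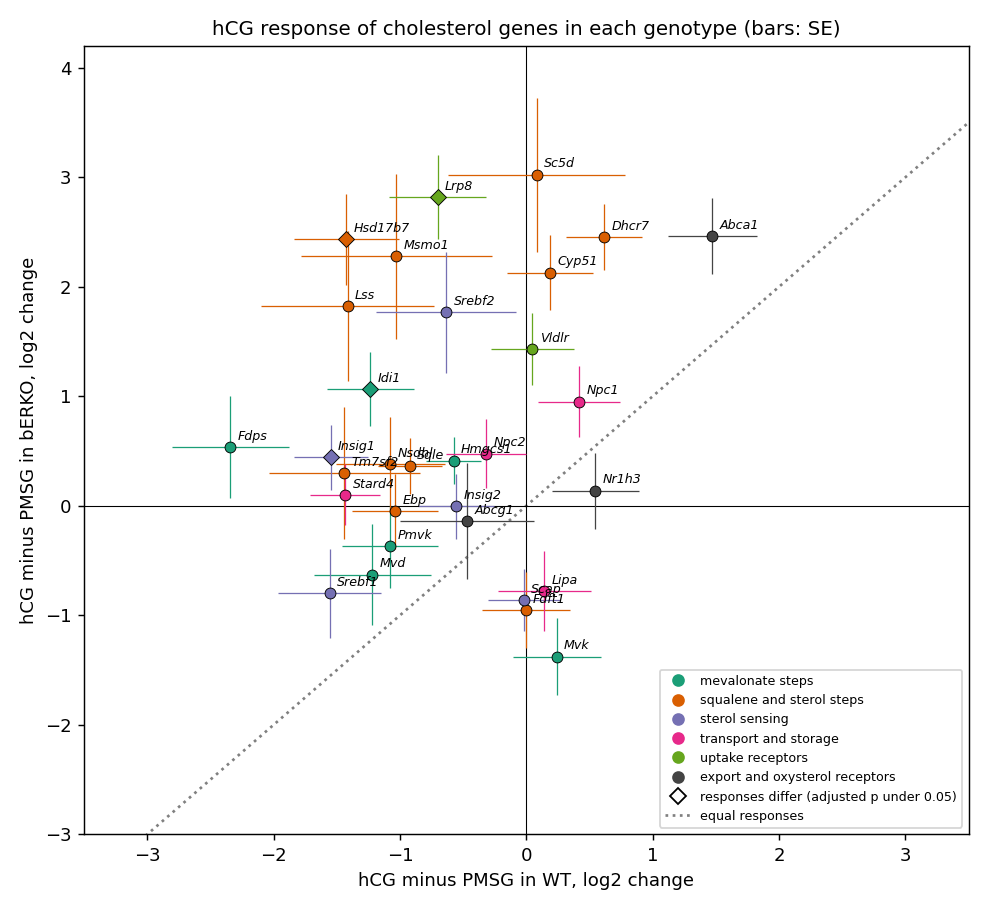
Each point is a gene, with its hCG minus PMSG change in log2(intensity + 16) in WT on the horizontal axis and in bERKO on the vertical axis, and bars for the SE. Diamonds mark the 4 genes whose responses differed in limma's interaction test, and all 4 lie above the dotted line of equal responses.

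The difference between the responses was tested directly with the interaction term, which uses the same arrays as the comparisons above and is not independent of them. Limma called 4 of 31 genes, all with the more positive response in bERKO (0.676% of all genes higher, 0.638% lower, 1.31% in either direction). For Hsd17b7 the WT response was −1.42 and the bERKO response 2.43, a difference of 3.86 (SE 0.59, adjusted p = 0.0129). For Lrp8 they were −0.70 and 2.82, a difference of 3.52 (SE 0.54, adjusted p = 0.0134). For Idi1 they were −1.23 and 1.07, a difference of 2.30 (SE 0.48, adjusted p = 0.0441). For Insig1 they were −1.55 and 0.44, a difference of 1.99 (SE 0.41, adjusted p = 0.0428).

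These 4 genes come from separate roles: a sterol step, an uptake receptor, a mevalonate step and sterol sensing. Fdps (2.88, adjusted p = 0.0576), Dhcr7 (1.84, adjusted p = 0.0627), Cyp51 (1.94, adjusted p = 0.0754), Stard4 (1.53, adjusted p = 0.0818) and Sqle (1.28, adjusted p = 0.112) were not called by limma. The difference was positive for 26 of 31 genes, with a median of 1.28 against −0.11 for all genes, and most negative for Mvk (−1.62). Hsd17b7 and Lrp8 were the genes called under each of the 23 alternatives run, though barely at the weakest (highest adjusted p by limma 0.049999 for each). The count was 2, these genes alone, without any 1 of the 3 WT PMSG arrays, bERKO PMSG replicate 1 or 3, WT hCG replicate 1 or 2, or bERKO hCG replicate 1 or 2, and also without both arrays of high Gapdh ratio. Those fits called 36 to 73 of all genes higher and 43 to 68 lower, against 123 and 116 with all arrays. Insig1 was lost without bERKO PMSG replicate 2 or bERKO hCG replicate 3, and Idi1 without WT hCG replicate 3.

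**Figure D4:**
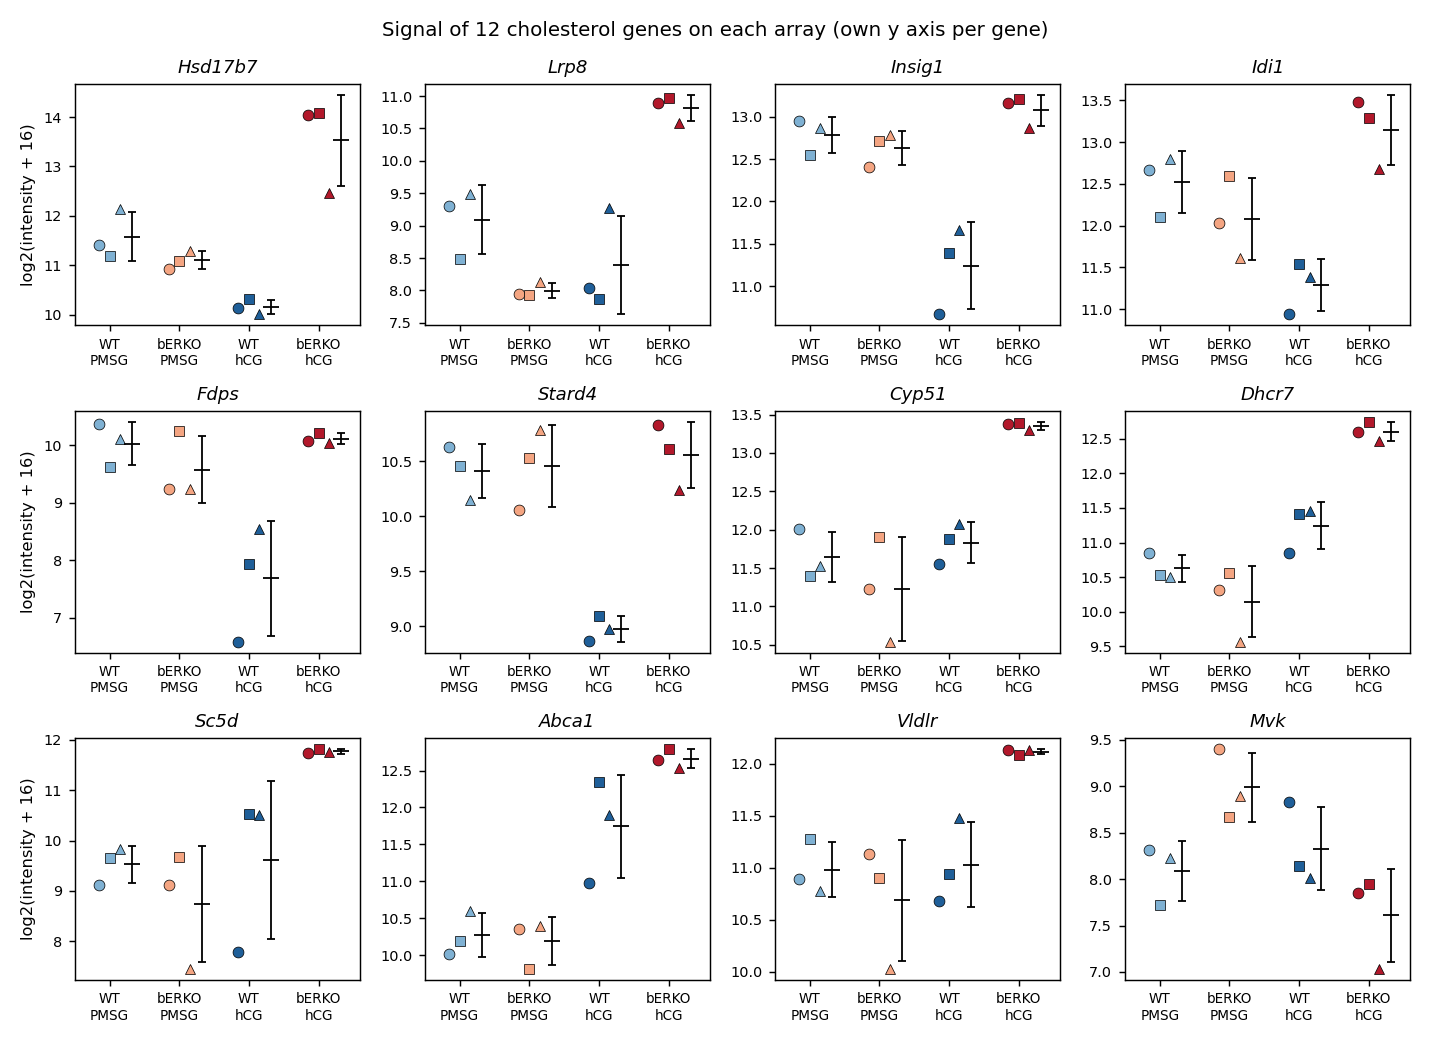
Each panel shows log2(intensity + 16) of 1 gene on the 12 arrays, with symbols for replicates and the group mean ± SD (n = 3) beside them, on its own vertical axis. For Fdps, Insig1 and Stard4 the 3 WT hCG points lie below all 9 others, while for Cyp51, Dhcr7 and Abca1 the 3 bERKO hCG points are the highest.

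Different groups stood apart for different genes. For Sqle, Insig1, Stard4, Fdps and Pmvk the WT hCG arrays lay below all 9 others. For Lrp8, Cyp51, Dhcr7, Sc5d, Msmo1, Srebf2, Vldlr and Abca1 the bERKO hCG arrays lay above all 9 others. Hsd17b7 and Hmgcs1 showed both, Hsd17b7 by the probe set used. The share of all genes with these patterns was not counted. For Idi1 the WT hCG arrays lay below all 9 others and bERKO hCG had the highest group mean, but its replicate 3 (12.67) lay below WT PMSG replicate 3 (12.80).

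Markers of other cell types also differed between the hCG groups. The mean of 12 endothelial markers was 5.73, 5.69 and 5.51 in WT hCG and 7.32, 7.66 and 6.79 in bERKO hCG, with 4 of the 12 called higher by limma and 12 of 12 positive. The mean of 12 stromal and smooth muscle markers was 6.22, 7.04 and 6.61 in WT hCG and 8.64, 8.50 and 7.41 in bERKO hCG, with none called and 12 of 12 positive. The mean of 12 leukocyte markers was 5.48, 5.73 and 5.59 in WT hCG and 7.04, 6.98 and 5.99 in bERKO hCG, with none called and 11 of 12 positive. Oocyte markers were positive for 11 of 12, with a median of 0.76 and none called. Theca markers did not go this way, with 2 of 5 positive, a median of −0.38 and none called. The mean of 11 granulosa markers was 12.60, 12.43 and 12.73 in WT hCG and 11.69, 11.50 and 11.87 in bERKO hCG, with 4 called lower. Within bERKO hCG, replicate 3 had the lowest endothelial, stromal and leukocyte means and the lowest values of Hsd17b7, Idi1, Insig1, Fdps, Sqle, Stard4, Lrp8, Cyp51 and Dhcr7. Before hCG, the mean of 12 oocyte markers was 5.63, 5.94 and 8.17 in WT PMSG and 8.57, 8.58 and 9.96 in bERKO PMSG, with none called and 12 of 12 positive. The part of these marker differences in the cholesterol results was not tested.

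**Figure D5:**
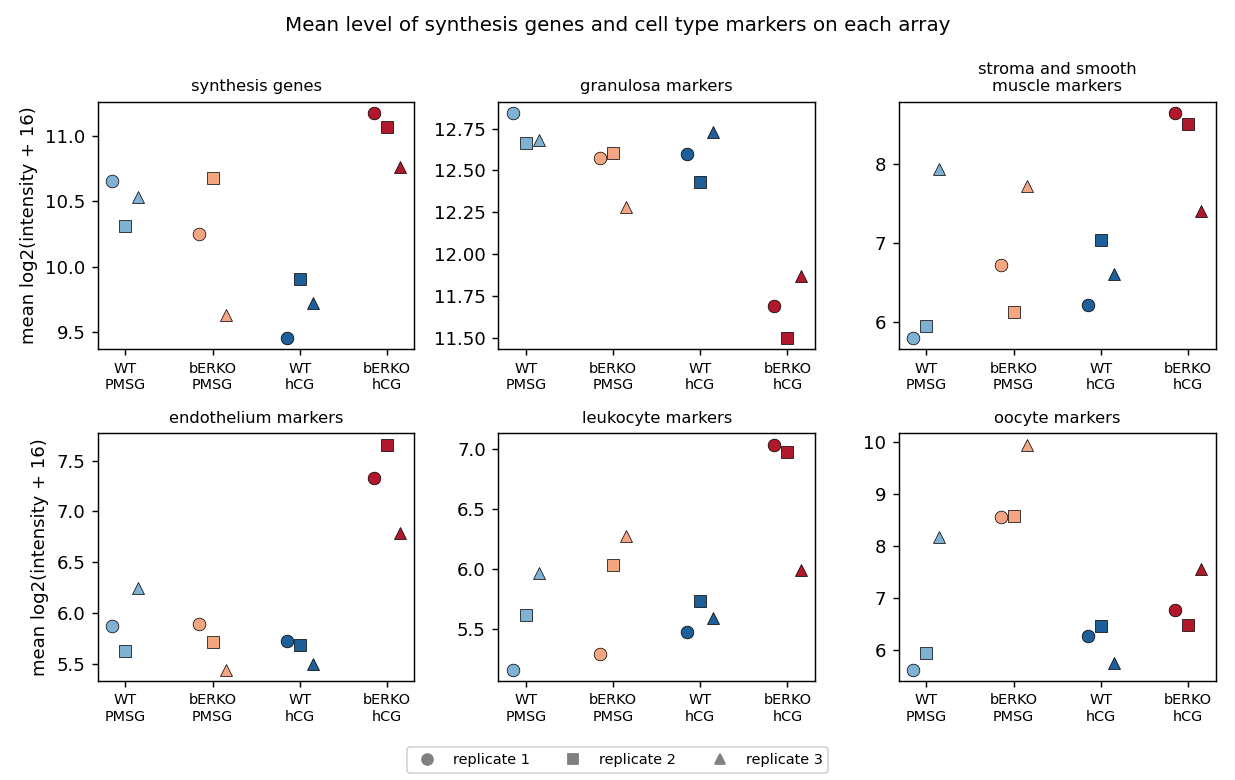
Each panel gives, for the 12 arrays, the mean log2(intensity + 16) of the 17 synthesis genes or of a list of cell type markers, with replicates 1 to 3 by symbol. The synthesis mean is 9.46 to 9.91 in WT hCG and 10.76 to 11.17 in bERKO hCG, where the endothelial and stromal means are also higher and the granulosa mean is lower.

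A list of 40 neighbouring genes of sterol and fatty acid metabolism, of which 33 were measured, was examined in the same fit. After hCG, limma called 2 of 33 higher in bERKO (1.55% of all genes) and 1 lower (1.54% of all genes), with a median of 0.13 against −0.06 over all genes. Scarb1, the HDL receptor that delivers cholesterol esters to steroid-making cells, was 2.30-fold higher (1.20, SE 0.25, adjusted p = 0.0303). Me1, the malic enzyme that supplies NADPH for lipid synthesis, was 3.32-fold higher (1.73, SE 0.40, adjusted p = 0.0439). Apoa1, the apolipoprotein that accepts cholesterol from ABCA1, was lower (−2.22, SE 0.38, adjusted p = 0.0137).

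In the bERKO response to hCG, 4 of these 33 genes were called higher (7.05% of all genes) and 5 lower (11.9% of all genes), with a median of −0.25 against −0.19 over all genes, counts near the background. Scarb1 rose (1.51, SE 0.25, adjusted p = 0.00201 by limma), as did Me1 (2.08, SE 0.40, adjusted p = 0.0047) and Ch25h, which makes 25-hydroxycholesterol (3.37, SE 0.69, adjusted p = 0.00613). Apoa1 fell by 2.63 (SE 0.38, adjusted p = 0.00101), and Nceh1, a cholesterol ester hydrolase, fell by 1.90 (SE 0.32, adjusted p = 0.00214). In the WT response and between genotypes after PMSG, 0 of the 33 were called. In the interaction test Apoa1 alone was called (−3.37, SE 0.54, adjusted p = 0.0141), opposite in sign to the 4 genes above.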

How the data were processed

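Per the labels' protocols, 25 ng of total RNA per laser-captured sample was amplified and labelled with biotin. The authors deposited 1 intensity per probe set and array on a linear scale, and the values have a 2% trimmed mean of 500 on each array. The software that made these values was not given in the sources used here. Of 45101 probe sets, 64 controls were left out, and 45037 were quantile normalised and transformed to log2(intensity + 16). Of these, 34945 are annotated to 1 gene, 932 to several and 9160 are unlisted, and 18193 genes were tested. The number of arrays, 3 per group, limits the precision. Group means over 12 arrays were fitted with limma 3.58.1 (statmod 1.5.0) in R 4.3.3, two-sided, with Benjamini-Hochberg adjustment within each of 5 contrasts, and the scripts were tested on simulated data. Sequences were searched with Python 3.11.15. All members were named, with statistics for those called and array values for those called between genotypes or in the interaction, and other members given with array values were chosen after their values were seen. Neighbours were named by the smallest p, up to 5 per comparison. The members and lists were chosen with earlier results of these data known. Replicate numbers did not pair the arrays. Alternatives covered scaling, offset, probe set choice, a filter, array weights and arrays left out.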

Additional observations from a re-analysis of the deposited data

Results flagged for a closer look

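The hCG responses of 4 cholesterol genes differed between genotypes in the interaction test of limma, each more positive in bERKO. The difference in log2 response was 3.86 for Hsd17b7 (adjusted p = 0.0129), 3.52 for Lrp8 (adjusted p = 0.0134), 2.30 for Idi1 (adjusted p = 0.0441) and 1.99 for Insig1 (adjusted p = 0.0428). The alternatives gave Hsd17b7 and Lrp8 in 23 of 23 settings, Idi1 in 9 and Insig1 in 7. The highest adjusted p by limma over these settings was 0.049999 for both Hsd17b7 and Lrp8.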

How the results depend on the processing

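Over 24 alternatives (23 for the interaction), no called gene changed sign. The comparison after PMSG kept 0 calls under all 24. The 9 calls after hCG became 5 with the probe set of largest variance and 5 with only the 6 arrays compared, and ranged from 3 to 11 with 1 array left out. With the probe set of largest variance 4 of the 9 were kept and Hmgcs1 was gained, while Cyp51, Dhcr7, Lrp8, Sqle and Stard4 were lost. Over all genes the calls after hCG, 282 higher and 280 lower, became 216 and 202, and 113 and 106, in the first 2 settings. The 3 WT calls became 0 with log2(value + 1), 0 with only the 6 arrays, 8 with log2(value + 64), 7 with a filter on dim genes, 9 with array weights and 9 with an intensity trend, and ranged from 0 to 4 with 1 array left out. The WT calls over all genes, 133 higher and 245 lower, became 53 and 86 with log2(value + 1). They became 12 and 19 with only the 6 arrays, 283 and 581 with log2(value + 64), and 254 and 503 with the filter. With array weights they were 561 and 1037, and with the trend 316 and 488. The 10 bERKO calls became 16 with the trend and ranged from 7 to 13. Calls over all genes in that response went from 1283 higher and 2164 lower to 1436 and 2380 with the trend. The 4 interaction calls became 2 with log2(value + 1), 10 with log2(value + 64), 8 with the filter, 7 with array weights, 9 with the trend and 2 without both arrays of high Gapdh ratio, and ranged from 2 to 5. Interaction calls over all genes, 123 higher and 116 lower, became 40 and 47 with log2(value + 1). They became 229 and 222 with log2(value + 64), 186 and 204 with the filter, and 224 and 196 with array weights. With the trend they were 244 and 266, and without both arrays 65 and 55. The replicate number as a block gave 6 calls after hCG, 0 in WT, 10 in bERKO (9 of them shared, with Idi1 lost and Lss gained) and 2 in the interaction. Over all genes the block gave 206 higher and 203 lower after hCG, and 52 and 96 in WT. It gave 1162 and 1988 in bERKO, and 69 and 60 in the interaction. The numbers did not pair the arrays: 1 of 18 same-numbered pairs correlated over 0.1 (range −0.082 to 0.119), and 7 of 36 best matches had the array's own number. The filter kept 11227 genes, and fewer genes tested or fewer arrays change the adjustment by construction. The cause of the other changes was not tested.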

Other observations

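Single arrays were often the lowest of their group across the pathway. In bERKO hCG, replicate 3 was the lowest of the group for 22 of 31 cholesterol genes, where it was the lowest for 40.0% of all genes. In WT hCG, replicate 1 was the lowest for 17 of 31, where it was the lowest for 32.5% of all genes. Of the 21 genes with several probe sets, 18 had 1 sign over all their probe sets for the genotype difference after hCG, including the 6 called genes with several, whereas 12 did so after PMSG. For the WT response to hCG 10 of the 21 did so, including the 2 called genes with several. For the bERKO response 18 did, including 7 of the 9 called genes with several.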
